A study of Mus musculus with 16 samples.

Results

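The Arp2/3 complex was followed here through the transcripts of its 9 annotated subunit genes, Actr2, Actr3, Arpc1a, Arpc1b, Arpc2, Arpc3, Arpc4, Arpc5 and Arpc5l. They were chosen by name, as the annotated subunits, with earlier results of these data known, and all 9 were found among the 49585 gene identifiers of the count tables. The libraries came from sorted bone neutrophils of C57BL/6 mice aged 8 to 12 weeks, with 4 libraries in each of 4 groups. P2KO mice carried Vav:cre and the floxed PHD2 allele (Vav:cre-PHD2f/f), and P2H2KO mice carried Vav:cre with floxed PHD2 and HIF2 (Vav:cre-PHD2/HIF2ff/ff). P2WT and P2H2WT were the wild types of each line, and whether these carried floxed alleles or the recombinase was not given. Vav:cre is active in blood cells in general, so a deletion driven by it is not limited to neutrophils. Line and deposited table coincide, and the replicate numbers in the titles ran over both lines with none shared between groups. As the series title says, the study was about HIF2α in neutrophil movement.

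The Arp2/3 complex starts a new actin filament on the side of an existing one and so builds the branched network at the front of a crawling cell. Actr2 and Actr3 encode the actin-related proteins Arp2 and Arp3, which form the first units of the new filament. Arpc2 and Arpc4 form the core that grips the mother filament, Arpc3 links Arp3 to the rest, and Arpc1 and Arpc5 complete the complex. Arpc1 and Arpc5 each exist in a pair of interchangeable forms, Arpc1a or Arpc1b and Arpc5 or Arpc5l. The complex is inactive until proteins such as WASP or WAVE bind it, and neutrophils use it for the leading edge, for phagocytosis and for the response to chemoattractants.

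The subunits are encoded on 5 chromosomes in the GENCODE M21 annotation of GRCm38.p6, among them Arpc1a (chromosome 5, 145083830 to 145108761) and Arpc1b (chromosome 5, 145114215 to 145130705), which are neighbours on the plus strand. Promoters are shown as a description, and no relation of their letters to the levels was tested. RefSeq promoter windows (GRCm38.p6) were found for 8 of the 9 genes, and Arpc5l was not matched. The 5 windows printed run from 220 bases before the start to 30 bases of the transcript, 5′ to 3′ on the gene's strand. They lie at chr11:20112922-20113171 on the minus strand, chr1:125435698-125435947 on the minus strand, chr5:122391658-122391907 on the plus strand, chr6:113377893-113378142 on the plus strand and chr1:152766322-152766571 on the plus strand. Capitals mark the motifs searched, on either strand.
Actr2: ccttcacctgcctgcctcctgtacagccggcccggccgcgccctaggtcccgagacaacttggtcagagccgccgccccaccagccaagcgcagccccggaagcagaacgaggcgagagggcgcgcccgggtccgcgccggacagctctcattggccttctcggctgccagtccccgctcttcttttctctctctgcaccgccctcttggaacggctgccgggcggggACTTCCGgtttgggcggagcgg
Actr3: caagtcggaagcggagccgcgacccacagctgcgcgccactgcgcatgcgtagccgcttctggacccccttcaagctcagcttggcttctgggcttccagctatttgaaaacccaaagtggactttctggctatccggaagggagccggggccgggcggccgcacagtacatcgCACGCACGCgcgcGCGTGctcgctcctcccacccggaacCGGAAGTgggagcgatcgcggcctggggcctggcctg
Arpc3: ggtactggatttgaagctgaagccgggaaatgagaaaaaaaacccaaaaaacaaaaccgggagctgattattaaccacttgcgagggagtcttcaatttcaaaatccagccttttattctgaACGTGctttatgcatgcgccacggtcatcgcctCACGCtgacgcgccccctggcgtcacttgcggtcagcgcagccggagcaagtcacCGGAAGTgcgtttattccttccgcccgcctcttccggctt
Arpc4: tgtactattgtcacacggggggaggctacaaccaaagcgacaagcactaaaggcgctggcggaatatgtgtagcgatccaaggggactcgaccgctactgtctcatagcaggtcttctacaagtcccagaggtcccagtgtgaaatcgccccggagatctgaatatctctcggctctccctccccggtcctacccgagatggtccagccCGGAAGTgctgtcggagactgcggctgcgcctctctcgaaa
Arpc5: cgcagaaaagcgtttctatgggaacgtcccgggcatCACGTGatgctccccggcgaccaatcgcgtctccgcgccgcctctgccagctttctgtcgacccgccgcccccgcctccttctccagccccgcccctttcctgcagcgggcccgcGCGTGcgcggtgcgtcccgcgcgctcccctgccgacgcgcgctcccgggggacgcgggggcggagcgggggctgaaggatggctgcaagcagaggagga

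The core of the hypoxia response element, ACGTG or GCGTG, was found on at least 1 strand in 6 of the 8 members' windows, all but Actr2 and Arpc4. It was also present in 43.8% of all 32851 promoter windows of the same length. It was in 63.5% of the 8739 windows of genes at a mean of at least 10 CPM, counts scaled to library size. Predicted genes (Gm and Rik names) and genes lacking a name were not among these 8739. The core bound by transcription factors of the ETS family, CGGAAGT, was chosen after the sequences had been seen. It stood in 6 of the 8 windows, against 6.42% of all windows and 14.6% of those of genes at 10 CPM or more. As the core was picked from these same windows, the contrast with other windows is no test of enrichment. With the first transcribed base as position 0, it began at 8 in Actr2, -7 in Actr3, -26 in Arpc1a and -11 in Arpc4. Arpc2 held it 2 times, at -33 and -15, and so did Arpc3, at -10 and at 30, the last beyond the stretch printed. Arpc1b and Arpc5 lacked these letters. A match describes the letters only and shows no binding.

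The total count per library was 23450746 to 28601284, and the 9 subunits took 0.325% to 0.484% of it. All 11 markers of the neutrophil list had counts in every library and made up 3.28% to 7.57% of counts. The erythroid list took 2.27% to 4.87%, with 8 of its 9 genes in the tables, and the monocyte and macrophage list took 0.189% to 0.338%. In all 8 marker lists every gene in the tables had a count in every library. The ranges of both targeted genes overlapped between groups labelled as deleted and their controls. Egln1, the PHD2 gene, was at 43.2 to 58.4 CPM in P2KO and 45.9 to 51.3 in P2WT, and at 49.2 to 58.8 in P2H2KO and 47.9 to 54.6 in P2H2WT. Epas1, the HIF2α gene, was at 3.42 to 8.39 CPM in P2H2KO and 2.55 to 4.97 in P2H2WT, and at 6.76 to 24.4 in P2KO and 8.70 to 11.3 in P2WT. These counts cover whole genes, including exons outside a deletion, and do not check the genotype labels. The 24 pairs of libraries within groups differed by more than sampling noise. That the libraries are separate mice was not stated, so p-values here measure the spread between these libraries. The title suffix m was on 3 of 4 libraries in P2KO and P2H2WT and on 2 of 4 in P2WT and P2H2KO.

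Levels of different subunits were compared as CPM per kilobase of merged exons. Arpc2 was the most abundant at 326 CPM per kilobase (range over the 16 libraries 246 to 417). Arpc5 followed at 247 (183 to 324), Actr3 at 158 (117 to 199.7) and Actr2 at 142 (109 to 184). Each of these 4 stood in the same order in 16 of 16 libraries. Arpc3, Arpc1b and Arpc4 had means of 118, 116 and 114 CPM per kilobase and were not separable with this length. Arpc3 exceeded Arpc1b in 9 of 16 libraries, and Arpc1b exceeded Arpc4 in 9 of 16.

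The minor forms were lowest. Arpc1a was at 35.0 CPM per kilobase (32.8 to 37.9) and Arpc5l at 12.3 (10.6 to 14.5). Arpc4 exceeded Arpc1a, and Arpc1a exceeded Arpc5l, in 16 of 16 libraries. The order depended on gene length for 1 subunit. With the longest principal transcript as length, a choice made after seeing the data, Arpc3 stood second at 363 CPM per kilobase. Arpc2 stayed first at 460.1, and Arpc1a and Arpc5l stayed last at 55.0 and 41.3. The gaps changed as well, with Arpc1b at 191 and Arpc4 at 117, and with Arpc5 at 293 beside Actr3 at 286. Actr3b, a close relative of Actr3 known from brain and testis, had only 6 to 23 counts per library.

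**Figure D1:**
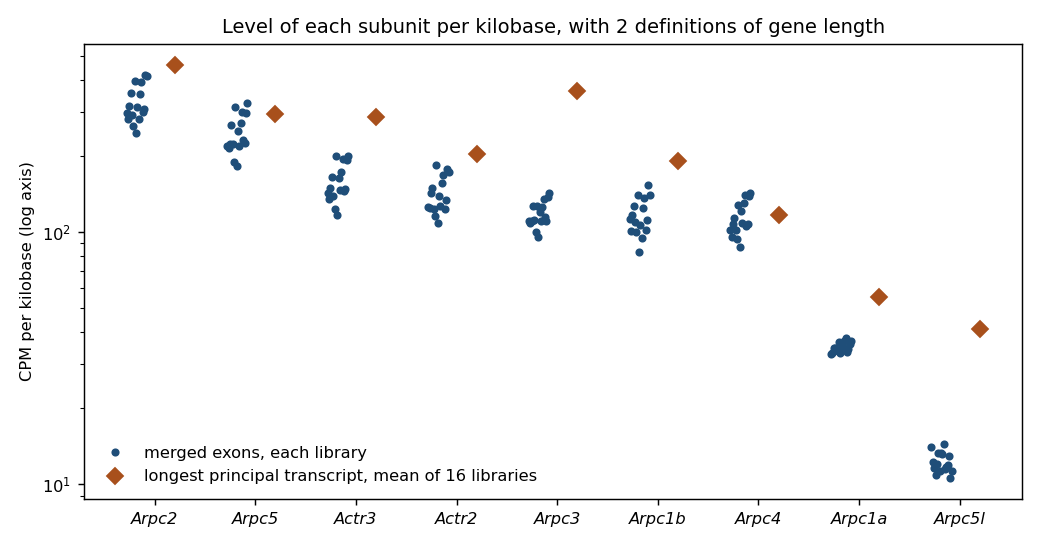
Level of each subunit per kilobase on a log axis. Points are the 16 libraries with merged exons as length, and diamonds are the means over 16 libraries with the longest principal transcript as length. Arpc2 is highest under both lengths, Arpc1a and Arpc5l are lowest, and the diamond of Arpc3 stands second.

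Some of these counts may include reads of other genes or lack reads shared with them. The use of strand in counting is not given in the sources used here. Arpc1b shares 931 of its exon bases, 18.2%, with Pdap1 on the other strand, which had 1740 to 2712 counts per library against 11059 to 21819 for Arpc1b. Arpc4 shares 283 exon bases, 12.2%, with Ttll3 on the same strand, which had at most 94 counts. Arpc5l shares 62 bases with Rpl35 and Arpc1a 50 with Kpna7. The processed pseudogene Gm8822 is 98.8% identical to an Actr3 transcript over 2348 bases and had 68 to 148 counts, and Gm5637 is 97.5% identical to Arpc1b over 1119 bases with 40 to 92 counts.

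In the comparison of P2KO with P2WT, which asked whether the transcripts of the complex change with PHD2 labelled as deleted, no subunit passed the test. Of 9 subunits tested, 0 had an adjusted p under 0.05 with Benjamini-Hochberg adjustment over 13734 genes in edgeR's quasi-likelihood fit, where 0.0437% of all genes did. At an unadjusted p under 0.05 the count was also 0 of 9, against 3.49% of all genes. The groups overlapped for all 9, whereas 2.25% of all genes had groups that did not. The log2 fold changes lay between -0.068 and 0.042 with a median of -0.017, beside a median of 0.020 over all genes tested. DESeq2 called 0 of 9 as well, with 0 at an unadjusted p under 0.05. In bulk libraries fewer cells of a type and less RNA per cell cannot be told apart.

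Actr2 was at 656, 648, 741 and 776 CPM in P2WT replicates 3, 4, 7 and 10. In P2KO replicates 1, 5, 6 and 9 it was at 644, 601, 956 and 565 CPM. The lowest and the highest of all 16 libraries for Actr2 were thus both P2KO libraries, replicates 9 and 6, which differed 1.69-fold. The log2 fold change of Actr2 was -0.015 (SE 0.17, 95% interval -0.40 to 0.37, edgeR adjusted p 0.99999).

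Actr3 followed the same course. It was at 661, 624, 689.5 and 764 CPM in P2WT and at 643, 572, 925 and 541 CPM in P2KO, in the same order of replicates. Replicates 6 and 9 of P2KO were again the highest and the lowest of all 16 libraries, 1.71-fold apart. The log2 fold change was -0.017 (SE 0.17, 95% interval -0.40 to 0.37).

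For the core subunits Arpc2 and Arpc4, P2KO replicates 6 and 9 were the ends of their group and replicate 9 the lowest of all 16 libraries, but the highest was a P2H2KO library. Arpc2 was at 600.3, 568, 644 and 719 CPM in P2WT and at 589, 532, 806 and 499 CPM in P2KO. The log2 fold change of Arpc2 was -0.049 (SE 0.16, 95% interval -0.41 to 0.31). Arpc4 was at 222 to 265 CPM in P2WT and 202 to 297 CPM in P2KO, and its log2 fold change was -0.017 (SE 0.13). For both genes the P2KO libraries spread on either side of the P2WT libraries.

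Arpc3, the link to Arp3, was at 306, 300.1, 306 and 349 CPM in P2WT and at 307, 277, 351 and 264 CPM in P2KO. Replicate 10 stood apart from the 3 other P2WT libraries. The log2 fold change of Arpc3 was -0.059 (SE 0.11, 95% interval -0.30 to 0.18). Arpc5 was at 488 to 603 CPM in P2WT and 417 to 714 CPM in P2KO. Its log2 value for P2KO against P2WT was -0.0099 (SE 0.18).

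Arpc1b, the form of Arpc1 typical of blood cells, was at 576, 517, 598 and 649 CPM in P2WT and at 563, 509.9, 716 and 425 CPM in P2KO. Its log2 fold change of -0.068 (SE 0.16, 95% interval -0.42 to 0.29) was the most negative of the 9. Arpc1a, the other form, was nearly flat at 84.3, 85.1, 89.4 and 89.3 CPM in P2WT and 87.7, 86.5, 94.4 and 85.2 CPM in P2KO. Its interval was the narrowest of the 9 in this comparison, from -0.10 to 0.17 around a log2 fold change of 0.034 (SE 0.060).

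Arpc5l was at 63.0, 55.4, 52.4 and 49.1 CPM in P2WT and at 54.2, 59.8, 50.9 and 59.8 CPM in P2KO. The log2 difference of Arpc5l was 0.042 (SE 0.087, 95% interval -0.16 to 0.24). Here replicate 6 was the lowest and replicate 9 the highest of P2KO, the opposite of the other 8 subunits. P2KO replicate 6 was the highest and replicate 9 the lowest of its group for 8 of those 8. Without replicate 6 the log2 fold changes of Actr2, Actr3, Arpc1b, Arpc2 and Arpc5 lay between -0.22 and -0.21, and without replicate 9 between 0.030 and 0.076. None of these fits called a subunit. Without replicate 6, 3 of 9 subunits had an unadjusted p under 0.05 by edgeR (Actr2 0.036, Actr3 0.043 and Arpc2 0.0496), along with 12.2% of all genes. The count was 0 of 9 without any other library of P2KO or P2WT.

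**Figure D2:**
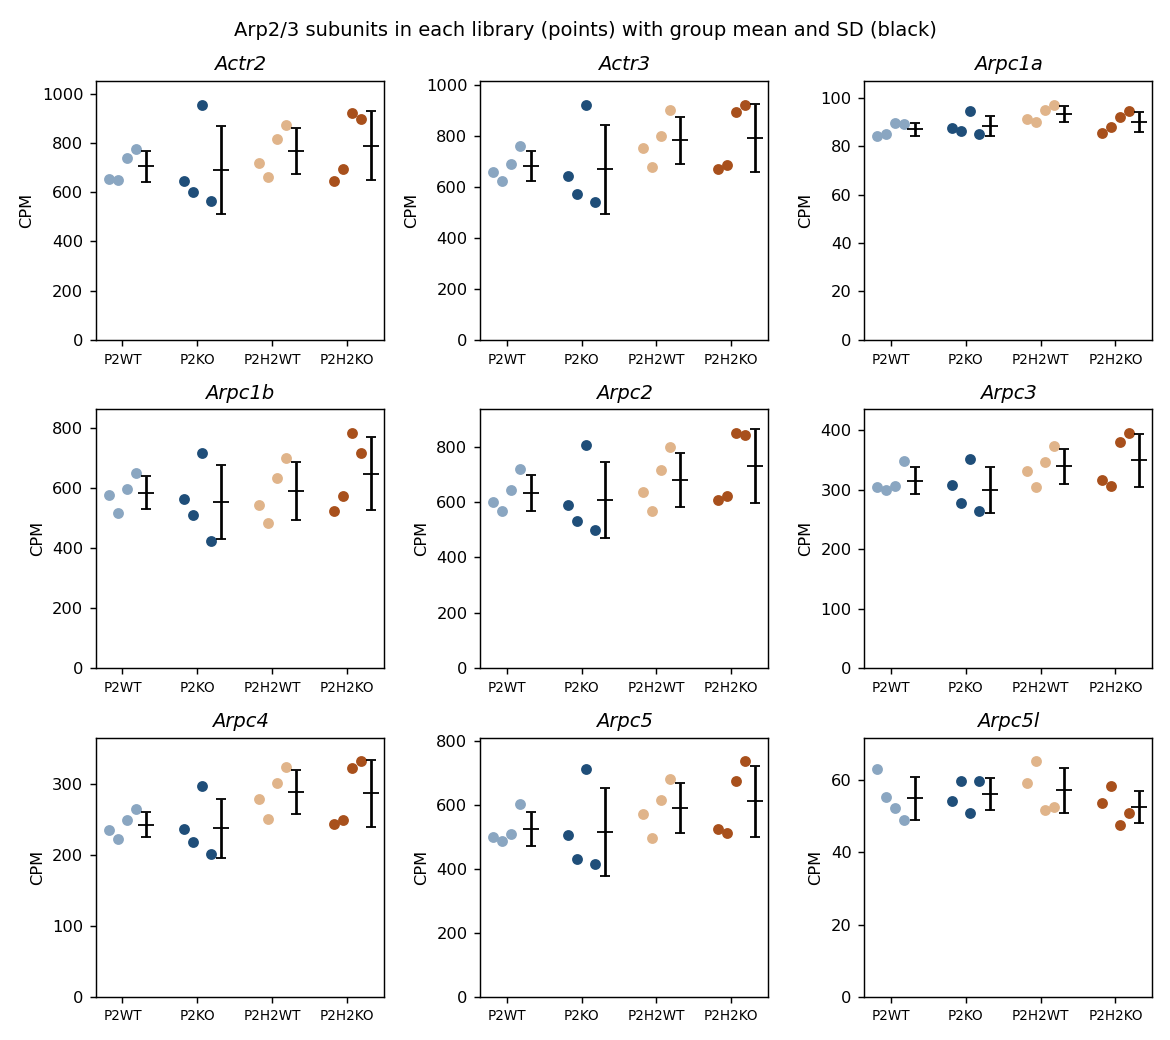
CPM of the 9 subunits in each library, in 4 groups. Points are libraries in order of replicate number, and the black bar beside them is the group mean with its SD (n = 4). The P2KO points of Actr2 run from 565 to 956 CPM and enclose all 4 P2WT points, while Arpc1a stays between 84.3 and 97.2 CPM in all groups.

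The comparison of P2H2KO with P2H2WT asked the same with HIF2α labelled as deleted in addition. Again 0 of 9 subunits had an adjusted p under 0.05 by edgeR, against 0.0744% of 13435 genes, and 0 of 9 had an unadjusted p under 0.05, against 2.63%. No subunit had groups without overlap, beside 1.71% of all genes. The log2 fold changes were between -0.12 and 0.14 with a median of 0.042, where the median of all genes was 0.0011. DESeq2 called 0 of 9, with 0 at an unadjusted p under 0.05.

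Arpc1b had the most positive value. It was at 544, 483, 635 and 699.7 CPM in P2H2WT replicates 13, 14, 16 and 18 and at 522, 573, 784 and 716 CPM in P2H2KO replicates 11, 12, 15 and 17. The log2 fold change was 0.14 (SE 0.16, 95% interval -0.22 to 0.49, edgeR adjusted p 0.9999). In both groups 2 libraries were low and 2 were high, and the groups overlapped. The 2 high P2H2KO libraries carried the title suffix f and the 2 low ones the suffix m. In P2H2WT the highest library, replicate 18, carried m. The only P2KO library with f, replicate 9, was the lowest of all 16 for Arpc1b. With the suffix as covariate the log2 fold change was 0.040 for Arpc1b, 0.0095 for Arpc2 and -0.076 for Arpc5l. These were smaller in size than without it. For Arpc4 and Arpc1a the size grew, to -0.091 and -0.070, and for Actr2, Actr3, Arpc3 and Arpc5 the sign changed.

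Arpc2 was at 635, 569, 715 and 798 CPM in P2H2WT and at 606, 622, 849 and 841 CPM in P2H2KO. The log2 fold change of Arpc2 was 0.10 (SE 0.15, 95% interval -0.23 to 0.44). Actr2 was at 719, 662, 815 and 872 CPM in P2H2WT and at 644, 695, 921 and 899 CPM in P2H2KO. For Actr2 the log2 difference was 0.042 (SE 0.14, 95% interval -0.28 to 0.36). In each of these genes replicates 15 and 17 of P2H2KO were above the other 2 P2H2KO libraries. In the same test the log2 fold change was 0.018 (SE 0.14) for Actr3, 0.043 (SE 0.11) for Arpc3, -0.011 (SE 0.13) for Arpc4 and 0.052 (SE 0.14) for Arpc5.

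The minor forms had the 2 most negative values of this line. Arpc5l was at 59.2, 65.2, 51.8 and 52.7 CPM in P2H2WT and at 53.6, 58.3, 47.6 and 50.8 CPM in P2H2KO. For Arpc5l this gave a log2 fold change of -0.12 (SE 0.097, 95% interval -0.34 to 0.097). Arpc1a was at 90.2 to 97.2 CPM and 85.7 to 94.8 CPM in the same groups, and it differed by a log2 value of -0.051 (SE 0.061, 95% interval -0.19 to 0.086). Neither passed the threshold.

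Whether the effect differed between the lines was tested directly, as the P2 effect minus the P2H2 effect in 1 fit of all 16 libraries. For this difference 0 of 9 subunits had an adjusted p under 0.05 by edgeR and 0 of 9 an unadjusted p under 0.05, against 0% and 1.51% of 14080 genes, and DESeq2 gave 0 and 0. The values ranged from -0.22 for Arpc1b (SE 0.23, 95% interval -0.71 to 0.28) to 0.15 for Arpc5l (SE 0.13, 95% interval -0.13 to 0.44). The value of Arpc1b was -0.36 without P2KO replicate 6 and -0.11 without P2KO replicate 9. For Actr2 the interval ran from -0.56 to 0.42 and for Arpc1a from -0.086 to 0.24, so differences of such sizes are not shown to be absent.

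**Figure D3:**
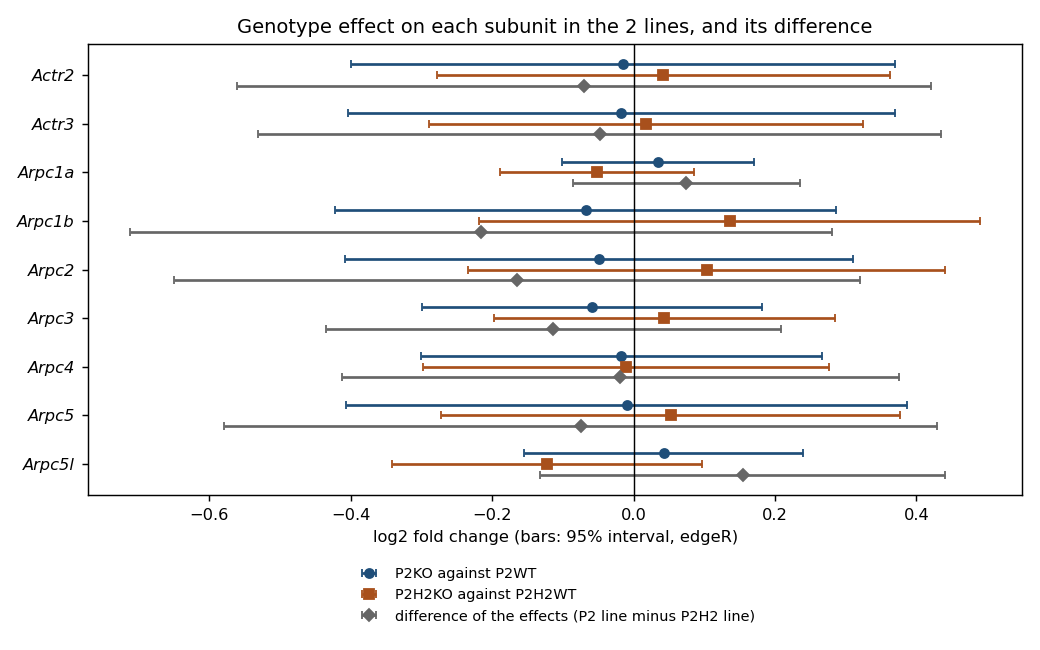
Log2 fold change of each subunit for P2KO against P2WT (circles), P2H2KO against P2H2WT (squares) and the difference of these effects (diamonds), with 95% intervals from edgeR. All intervals include 0, and those of Arpc1a are narrow while those of the difference for Arpc1b reach from -0.71 to 0.28.

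Between the lines most subunits had lower means in the P2 line, but none was called. In P2WT against P2H2WT all 9 log2 fold changes were below 0, where 48.3% of all genes were above 0. They ran from -0.25 to -0.013 with a median of -0.11, beside a median of -0.0060 over all genes. As 8 of the 9 moved together across libraries, a shared sign is not 9 separate results. None of the 9 had an adjusted p under 0.05 by edgeR (0.227% of 14080 genes) or an unadjusted p under 0.05 (10% of genes), and the lowest adjusted p was 0.565. DESeq2 called 0 of 9, where it called 291 genes in all, against 32 by edgeR. With DESeq2 1 of 9 had an unadjusted p under 0.05, and its share of all genes at that level is not given here. Arpc1a had all 4 P2WT libraries, at 84.3 to 89.4 CPM, below all 4 P2H2WT libraries, at 90.2 to 97.2 CPM. Groups did not overlap in 2.59% of all genes in this direction and in 7.77% in either, and the other 8 subunits overlapped. Its log2 fold change was -0.10 (SE 0.053, edgeR adjusted p 0.565). Arpc4 had the largest difference, at -0.25 (SE 0.13, 95% interval -0.53 to 0.029).

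In P2KO against P2H2KO, which shares no library with that comparison, 8 of 9 subunits were below 0, where 51.2% of all genes were above 0. The 9 values ranged from -0.27 to 0.096 with a median of -0.23, against 0.0062 over all genes. The limit on shared signs holds here as well. The count called was 0 of 9 by edgeR, where 0.923% of genes were called, and 0 of 9 at an unadjusted p under 0.05, where 15.8% were. DESeq2 called 0 of 9, where it called 422 genes in all, against 130 by edgeR. With DESeq2 2 of 9 had an unadjusted p under 0.05, and here too its share of all genes is not given. All 9 overlapped between these groups, and 6.99% of all genes did not. Arpc3 at -0.22 (SE 0.11) and Arpc4 at -0.27 (SE 0.13) had the lowest adjusted p, 0.328. Arpc5l was the exception at 0.096 (SE 0.095). Without P2KO replicate 6, 7 of 9 had an unadjusted p under 0.05, as had 27.9% of all genes, and 0 were called. The count was 2 of 9 without P2H2KO replicate 11 or 12, with 21.1% and 19.9% of all genes. It was 0 of 9 without any other library of these groups. Line, table and, in this comparison, HIF2 genotype cannot be told apart.

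The balance of the interchangeable forms was taken as a share per kilobase. Arpc1b made up 77.1% ± 1.34 (SD, n = 4) of Arpc1a plus Arpc1b in P2WT, 75.4% ± 3.23 in P2KO, 75.8% ± 2.39 in P2H2WT and 78.0% ± 2.54 in P2H2KO. Single libraries ran from 71.4% in P2KO replicate 9 to 81.0% in P2H2KO replicate 15. Arpc5 made up 94.9% ± 0.869 of Arpc5 plus Arpc5l in P2WT, 94.5% ± 1.52 in P2KO, 95.2% ± 1.10 in P2H2WT and 95.7% ± 1.05 in P2H2KO. The major form thus prevailed in every library, and no difference between groups passed the test. Over 8 two-sided exact permutation tests the adjusted p was 0.64 to 0.686, and 4 against 4 libraries cannot give a p under 0.0286. With principal transcripts as length the Arpc5 share was lower, at 86.0% to 88.8% in the group means.

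What the subunits shared was their course across libraries within groups. On log2(CPM + 0.5) with group means taken off, the 28 pairs of the 8 subunits other than Arpc5l had Pearson r of 0.90 to 0.99 and Spearman rho of 0.87 to 0.99 over 16 libraries. Arpc5l ran against all 8, with r of -0.81 to -0.75 and rho of -0.81 to -0.77. In exact permutations of libraries within groups, added after seeing the data, the highest adjusted p over 36 pairs was 0.0012 for r and 0.00195 for rho. The 2 libraries farthest from the median of the first subunit of each pair, which was never Arpc5l, were also left out. Then r was 0.82 to 0.99 among the 8 and -0.86 to -0.76 with Arpc5l. In the P2 line alone the ranges were 0.74 to 0.99 and -0.79 to -0.68, and in the P2H2 line 0.66 to 0.996 and -0.87 to -0.40.

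The size of the swing differed between subunits. The SD within groups on the log2 scale was 0.25 for Arpc1b and Arpc5 and 0.24 for Actr2, Actr3 and Arpc2, then 0.19 for Arpc4 and 0.15 for Arpc3. For Arpc1a it was only 0.057, although its course was that of the others (r of 0.90 to 0.96). In P2H2WT replicate 18 was highest and replicate 14 lowest for 8 of 8 subunits, and in P2WT replicate 10 was highest for 7 of 8 and replicate 4 lowest for 7 of 8.

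**Figure D4:**
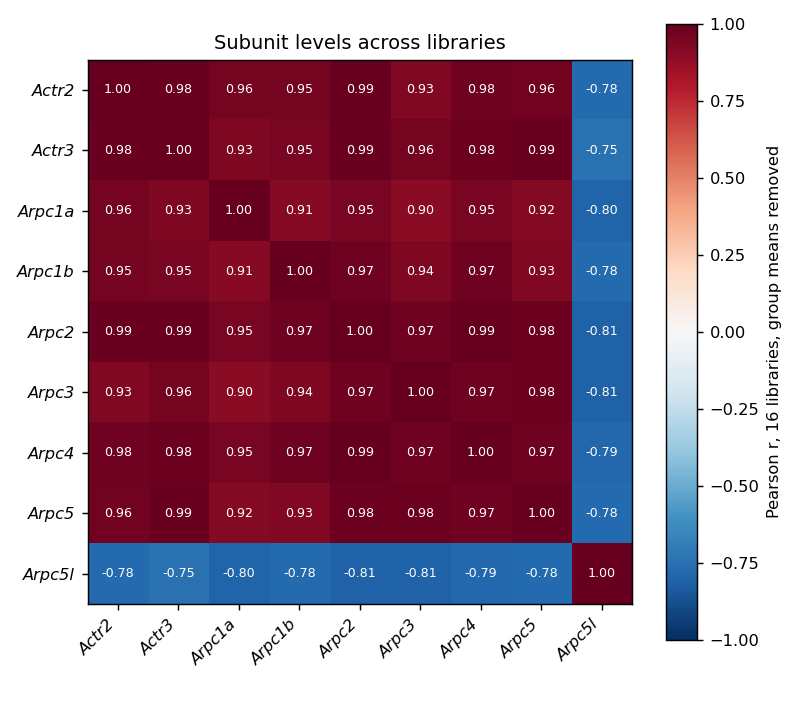
Pearson r between subunits over 16 libraries on log2(CPM + 0.5), group means removed. Red is positive and blue negative, with r printed in each square. The 8 subunits other than Arpc5l form 1 red block from 0.90 to 0.99, and the row of Arpc5l is blue, from -0.81 to -0.75.

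This shared course was not particular to the complex. Genes with a mean of at least 10 CPM were compared, without the subunits, predicted genes (Gm and Rik names) and genes lacking a name. Among these 8427 genes, r with the mean of the 9 subunits had a broad spread, with 5th and 95th percentiles at -0.88 and 0.94. Of these genes, 10.3% exceeded 0.9. The 5 genes most like the complex were Coro1a (r = 0.994), an actin-binding coronin that can inhibit Arp2/3, Cdc42 (0.994), the GTPase that activates WASP, Rab2a (0.993), a GTPase of membrane transport, Wdr1 (0.992), a cofactor of actin disassembly, and Pkm (0.991), a glycolytic kinase. With only line means removed, 3 of these 5 remained. For r with Arpc5l over the same 8427 genes, the 5th, 25th and 95th percentiles were -0.81, -0.61 and 0.78. Strong values of either sign were thus common there too. Most like Arpc5l were Tifa (r = 0.950), an adaptor of NF-κB signalling, Xrcc6 (0.943), a DNA repair protein, Gtf3c5 (0.941), Gpam (0.933) and Ncoa5 (0.931).

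Of the 8 marker lists, the relation to the subunits was computed for 2, the erythroid and the late granule list, and not for the other 6. A list's score averages log2 CPM over its genes. Relations were computed within each line over 8 libraries, after the data had been seen, with exact permutation tests adjusted over all 36. The share of all genes with such relations was not computed, so the counts below are not shown to be particular to the subunits. With the erythroid score the 8 subunits had r of -0.94 to -0.78 in the P2 line (rho -0.90 to -0.69), with an adjusted p under 0.05 for r in 8 of 8. In the P2H2 line r was -0.92 to -0.44 (rho -0.98 to -0.71), with 7 of 8, Arpc1a being the exception. With the late granule score, made of genes of mature neutrophils, r was 0.75 to 0.97 in the P2 line (8 of 8) and 0.51 to 0.86 in the P2H2 line (7 of 8, again not Arpc1a). By rho the erythroid relations had an adjusted p under 0.05 in 7 of 8 subunits in each line, not in Arpc1a. The late granule relations did so in 7 of 8 in the P2 line (rho 0.36 to 0.88) and in 1 of 8, Arpc5, in the P2H2 line (rho 0.33 to 0.79).

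Arpc5l went the other way, with r of 0.63 and 0.80 with the erythroid score in the P2 and P2H2 lines and -0.68 in both with the late granule score. Only the relation of 0.80 had an adjusted p under 0.05 (exact permutation, 0.0287). Without the 2 libraries farthest out in the score, the erythroid relations of the 8 subunits were at -0.85 to -0.45 and -0.95 to -0.77. The late granule relations were then 0.074 to 0.91 and -0.050 to 0.77, and the relation of Arpc1a in the P2 line, at 0.074, rested on these libraries. For Arpc5l the erythroid relations were then 0.47 and 0.48 in the P2 and P2H2 lines, and the late granule relations -0.15 and -0.76.

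P2KO replicate 6, where most subunits were high, had the lowest erythroid score (10.9) and the highest late granule score (8.91) of the P2 line. P2KO replicate 9, where they were low, had the lowest late granule score (7.38) of all 16 libraries. It also had the highest B cell score (6.34) and the highest megakaryocyte score (4.72), with a summed megakaryocyte level of 176 CPM against at most 90.6 CPM elsewhere. The T and NK cell score was lowest in these same 2 libraries, at 2.03 and 2.01, although the subunits were high in 1 and low in the other. The part of these 3 lists in the subunit levels was not tested. The summed erythroid level was 29916 to 41371 CPM in P2WT, 23768 to 43112 in P2KO, 34777 to 48997 in P2H2WT and 24194 to 45291 in P2H2KO, so these ranges overlapped between the groups. The part of cell content in the subunit levels was not tested beyond a fit with both scores as covariates, in which 0 of 9 subunits were called in each of the 5 comparisons.

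**Figure D5:**
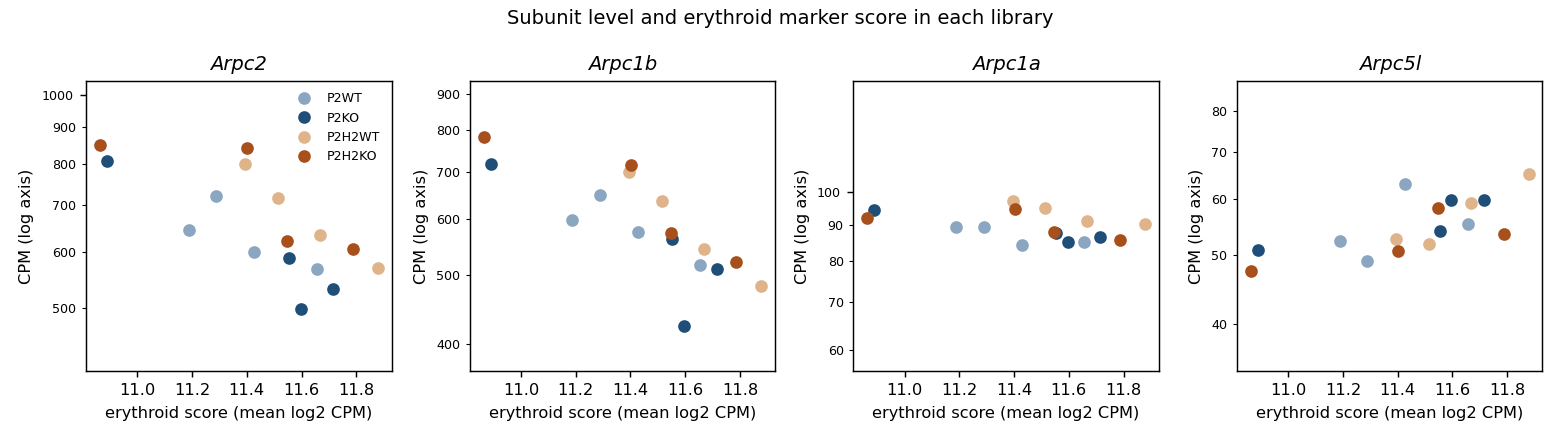
CPM of 4 subunits (log axis spanning the same ratio in each panel) against the erythroid score, the mean log2 CPM of 8 erythroid genes. Points are the 16 libraries, coloured by group. Arpc2 and Arpc1b fall from left to right, Arpc1a is nearly level between 84.3 and 97.2 CPM, and Arpc5l rises.

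The regulators of the complex, a list of 45 genes, gave no call either. Of these, 42 were tested, and 0 had an adjusted p under 0.05 by edgeR in any of the 5 comparisons. An unadjusted p under 0.05 was seen for 1 of 42 with PHD2 labelled as deleted, for 0 with both deleted and for 0 in the difference, against 3.49%, 2.63% and 1.51% of all genes. Wasf1, Wasf3 and Arpin had too few counts to be tested. The median log2 fold change of the 42 was -0.031 in the P2 line and 0.042 in the P2H2 line.

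The 1 gene was Wasl, which encodes N-WASP, the activator of the complex that many tissues share. It was at 17.1 ± 0.816 CPM in P2WT and 19.2 ± 0.850 CPM in P2KO (SD, n = 4). Like 2.25% of all genes, it had groups that did not overlap. Its log2 fold change of 0.17 (SE 0.066, unadjusted p 0.0267, edgeR) did not pass over all genes (adjusted p 0.99999). In the P2H2 line it was at 15.9 ± 0.851 and 16.8 ± 1.25 CPM.

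Next by p in the P2 line were Nckap1, a WAVE complex subunit, whose log2 difference was 0.28 (SE 0.16), and Coro1b, a coronin that helps take branches apart, at -0.15 (SE 0.088). In the P2H2 line they were the adaptor Nck2 at -0.18 (SE 0.15), Washc3 of the endosomal WASH complex at 0.11 (SE 0.11) and Vav1, an exchange factor for Rac, at 0.083 (SE 0.088). For the difference of the effects they were Washc3 at -0.22 (SE 0.13), Washc5 at -0.13 (SE 0.095) and the Rac activator Dock2 at -0.17 (SE 0.18). None of these had an unadjusted p under 0.05.

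Between the wild types 1 of 42 regulators had an unadjusted p under 0.05 by edgeR, against 10% of all genes. This was Jmy, an activator that can also nucleate filaments itself. The level of Jmy was 55.0 ± 5.33 CPM in P2WT and 45.1 ± 4.08 CPM in P2H2WT (SD, n = 4). Like 7.77% of all genes, Jmy had groups that did not overlap. Its log2 fold change of 0.29 (SE 0.13, unadjusted p 0.0481) was not called (edgeR adjusted p 0.49). Brk1, the small WAVE subunit, was at -0.17 (SE 0.095) and Cdc42 at -0.23 (SE 0.14). In P2KO against P2H2KO 9 of 42 regulators had an unadjusted p under 0.05, 5 higher and 4 lower, where 9.5% and 6.34% of all genes did.

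Within groups, 18 of 39 regulators at 10 CPM or more had r above 0.9 with the mean of the 9 subunits, beside 10.3% of the 8427 genes. Pairs of related genes were looked at after their values were seen, and those named next were picked for having r of opposite sign. The blood form Nckap1l had r of 0.985 and Nckap1 -0.85, Hcls1 had 0.961 and its relative Cttn (cortactin) -0.80, and Was had 0.978 and Wasl -0.45, the last between the 25th percentile and the median of all genes. Other relatives on the list shared a sign, with r of 0.914 and 0.719 for Cyfip1 and Cyfip2, 0.973 and 0.817 for Gmfg and Gmfb, and 0.955 and 0.753 for Wipf1 and Wipf2. Jmy had r of -0.91 and Arf6, a GTPase of membrane traffic, -0.62.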

How the data were processed

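RNA from sorted mouse neutrophils was sequenced in 16 libraries, 4 in each of 4 groups taken from the labels. Per the file headers, the authors deposited raw counts per Ensembl gene in 2 tables; HTSeq and mm10 are named in the submitters' processing notes. The aligner, annotation release and use of strand are not given in the sources used here. GENCODE M21 names matched 49326 of 49585 identifiers.

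Counts were filtered with filterByExpr, scaled by TMM and tested with edgeR 4.0.16 (glmQLFit robust, glmQLFTest) in R 4.3.3, two-sided, with Benjamini-Hochberg adjustment over all genes and a threshold of 0.05. Each line was fitted on its 8 libraries, and the other comparisons on all 16. Standard errors came from the F statistic, and 95% intervals from its degrees of freedom. CPM came from the fit of 16 libraries. Similar transcripts were found with blastn 2.17.0 (at least 400 bases and 85% identity). Scripts were tested on simulated data.

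The members, the lists of regulators and markers and the naming rule were chosen with earlier results of these data known. All members were named, with the 3 regulators of smallest p in each of the first 4 comparisons, since none was called, and the 5 genes most like the complex. The ETS core, pairwise and score correlations, score covariates, principal lengths, genes like Arpc5l and the paralogue pairs were chosen after seeing the data. Alternatives included other size factors and filters, DESeq2 1.42.0, the title suffix and each library left out. Marker lists for early granule, B cell, T and NK cell and megakaryocyte genes made up 0.204% to 0.387%, 0.079% to 0.197%, 0.00424% to 0.00744% and 0.00284% to 0.0187% of counts, and that for late granule genes 0.263% to 0.735%.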

Additional observations from a re-analysis of the deposited data

Results flagged for a closer look

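In P2WT replicate 10 Arpc3 was at 348.8 CPM, far from the other 3 libraries of the group, which lay between 300.1 and 306.0 CPM. This was the only such case among 44 sets of 4 libraries examined, and about 1 in 20 is set apart by chance alone. The same library was the highest of P2WT for 7 of the 8 subunits other than Arpc5l.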

How the results depend on the processing

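The count of subunits called was 0 in each of the 5 comparisons under every alternative and in every fit that left out 1 library. Of 765 log2 fold changes of subunits under alternatives, 687 kept their sign and 78 did not, and the lowest adjusted p was 0.0787, for Arpc4 in P2WT against P2H2WT with the score covariates (-0.26). The following log2 values changed sign. With the score covariates they were Actr2 0.000038, Arpc4 0.0031, Arpc5 0.0074 for P2KO against P2WT, Actr2 -0.14, Actr3 -0.16, Arpc1b -0.063, Arpc2 -0.091, Arpc3 -0.081, Arpc5 -0.13 for P2H2KO against P2H2WT, Actr2 0.12, Actr3 0.13, Arpc2 0.026, Arpc3 0.0042, Arpc4 0.14, Arpc5 0.11 in the difference of the effects, and Arpc1a 0.010 in P2KO against P2H2KO. With the title suffix as covariate they were Actr2 -0.049, Actr3 -0.062, Arpc3 -0.015, Arpc5 -0.036 in the P2H2 line and Actr2 0.021, Actr3 0.019, Arpc4 0.057 in the difference. Leaving out single libraries gave, where a sign changed, Actr2 -0.21 to 0.065, Actr3 -0.21 to 0.068, Arpc1b -0.22 to 0.036, Arpc2 -0.22 to 0.030, Arpc4 -0.14 to 0.051, Arpc5 -0.21 to 0.076, Arpc5l -0.0048 to 0.11 in the P2 line, lowest without P2KO replicate 6 except for Arpc5l (without P2WT replicate 10). In the P2H2 line the ranges were Actr2 -0.037 to 0.13, Actr3 -0.060 to 0.089, Arpc3 -0.019 to 0.10, Arpc4 -0.086 to 0.058, Arpc5 -0.046 to 0.13, in the difference Actr2 -0.27 to 0.014, Actr3 -0.24 to 0.041, Arpc4 -0.14 to 0.053, Arpc5 -0.27 to 0.015, and in P2WT against P2H2WT Arpc1b -0.10 to 0.078, Arpc5l -0.14 to 0.010. The cause was not tested. The share of Arpc5 changed sign in 3 comparisons, with differences of -1.07 to 0.0234 percentage points for P2KO against P2WT, -0.00923 to 0.863 for P2H2KO against P2H2WT and -0.805 to 0.0145 between wild types. Counts of genes called over all genes moved more. DESeq2 gave 23 for the P2 genotypes, 42 for the P2H2 genotypes, 291 between wild types and 422 between deficient groups, where edgeR gave 6, 10, 32 and 130. The score covariates gave 21, 17, 8 and 1, and the fit of all 16 libraries gave 10 in the P2 line. Between wild types no filter gave 9, at least 10 counts in every library 0 and the suffix 124. Between deficient groups at least 10 counts gave 56 and the suffix 210. Without single libraries these counts were 4 to 6, 6 to 9, 0 to 29 (0 without P2WT replicate 3, 4 or 7 or P2H2WT replicate 13, and 1 without P2WT replicate 10 or P2H2WT replicate 16) and 38 to 179 (38 without P2H2KO replicate 15, 179 without P2KO replicate 6, 130 without P2KO replicate 1 and 39 to 68 without any other). Of the 5 genes most like the complex, 3 were named again with line means only. No paired analysis was possible because no replicate number is shared between groups. With 4 libraries a group and the swing between libraries, intervals for most subunits reach 0.3 or more on the log2 scale.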
